A study of Mus musculus with 15 samples.

Results

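Bipolar cells are the interneurons that carry the photoreceptor signal to the inner retina, and 9 genes that mark them were followed here across the retinas of 15 mice. The genes were taken by symbol from a list of bipolar markers, which holds 9 of the 16593 genes with a probe on the array. They are separated into 6 markers of ON and rod bipolar cells (Pcp2, Prkca, Grm6, Trpm1, Isl1 and Gng13) and 3 markers of OFF and cone bipolar cells (Vsx1, Grik1 and Scgn). The array holds 15 probes for them. In 13 of the 15, which cover all 9 genes, the signal was detected above the array's negative controls (detection p under 0.01) on at least 5 arrays.

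Each array measured the pooled RNA of the 2 retinas of 1 mouse at postnatal day 30 on a C57bl/6 background. The control group was Nrl-/- (n = 5), the other groups were CNGA3-/-/Nrl-/- (n = 5) and CNGB3-/-/Nrl-/- (n = 5), and they are called the control, the CNGA3 group and the CNGB3 group below. All 3 groups lack Nrl, the transcription factor that sends photoreceptor precursors to the rod fate, so every retina has cone-like photoreceptors in place of rods and no group has a normal rod pathway. Cnga3 and Cngb3 encode the subunits of the cyclic nucleotide-gated channel through which cones respond to light. The labels name no conditional allele or Cre driver.

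ON bipolar cells, which include the rod bipolar cells, respond to glutamate from photoreceptors through the metabotropic receptor mGluR6 (Grm6). In the dark this receptor keeps the cation channel Trpm1 closed through a Go protein, and light, by reducing glutamate, lets the channel open. OFF bipolar cells use ionotropic glutamate receptors instead, among them the kainate receptor subunit GluK1 (Grik1). In a retina without rods the rod bipolar cells persist and are contacted by cone-like cells.

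The sequence upstream of the start is shown for the receptor and the channel of this cascade, and for Cabp5, the bipolar gene that separated the channel-deficient groups in the results below. The windows are the 250 bases before annotated starts in RefSeq (GRCm38.p6), 5′ to 3′ on the gene's strand. Capitals mark the 5-base core TAATC, read on either strand as TAATC or GATTA, which the photoreceptor and bipolar homeodomain factors Otx2 and Crx recognise, and in the second Trpm1 window also the E-box CACGTG. The motifs were chosen after earlier results and the windows had been seen.
Grm6, chr11:50850435-50850684, + strand: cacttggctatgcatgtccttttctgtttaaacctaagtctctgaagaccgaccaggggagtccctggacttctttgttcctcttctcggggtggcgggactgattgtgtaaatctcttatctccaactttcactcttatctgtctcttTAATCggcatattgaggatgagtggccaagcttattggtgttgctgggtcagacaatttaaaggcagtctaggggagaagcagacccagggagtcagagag
Trpm1, first start, chr7:64153585-64153834, + strand: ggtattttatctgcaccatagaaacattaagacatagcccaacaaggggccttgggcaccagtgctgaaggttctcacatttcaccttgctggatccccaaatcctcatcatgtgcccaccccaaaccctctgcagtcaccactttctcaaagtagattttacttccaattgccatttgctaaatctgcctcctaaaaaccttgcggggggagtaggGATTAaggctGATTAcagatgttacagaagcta
Trpm1, second start, chr7:64185209-64185458, + strand: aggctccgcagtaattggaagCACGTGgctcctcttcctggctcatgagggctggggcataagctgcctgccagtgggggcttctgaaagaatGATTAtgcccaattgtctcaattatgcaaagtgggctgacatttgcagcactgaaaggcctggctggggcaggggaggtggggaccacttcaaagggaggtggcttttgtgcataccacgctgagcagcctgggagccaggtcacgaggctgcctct
Cabp5, chr7:13397905-13398154, + strand: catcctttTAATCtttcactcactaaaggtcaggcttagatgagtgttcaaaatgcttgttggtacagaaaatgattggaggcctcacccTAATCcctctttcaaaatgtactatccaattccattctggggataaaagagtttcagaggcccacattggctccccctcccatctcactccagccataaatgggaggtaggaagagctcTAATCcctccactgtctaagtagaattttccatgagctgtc
The core stands once before Grm6, at 2 places before the first Trpm1 start, once before the second and at 3 places before Cabp5. Of the 9 markers, 8 matched the table, with 13 windows, and 5 of these windows, belonging to the 4 ON genes Grm6, Trpm1, Isl1 and Pcp2, hold the core. Among all 32851 windows of this length 19.8% hold it and 6.02% hold the E-box CACGTG, which does not overlap the core here. A match describes the letters of a window and is no evidence of binding.

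The targeted genes were read first. Cngb3 lay between 7.32 and 10.05 in the control, 8.33 and 9.56 in the CNGA3 group and 6.68 and 7.24 in the CNGB3 group, below every control (log2 difference -2.08, limma adjusted p = 0.0108). The 2 probes of Cnga3 were detected on all arrays and did not pass the test in the CNGA3 group (-0.14 and -0.28, limma adjusted p = 0.598 and 0.396), and where they lie relative to the targeted part of the gene was not analysed here, so they do not check that label. The arrays were of similar brightness, with median intensities from 136.8 to 171 and 10302 to 13763 detected probes. Of 13 cone photoreceptor genes on the array, 12 were measured, and Nrl was detected on no array. Markers of tissue next to the retina varied between arrays. The mean centred log2 level of 12 measured pigment epithelium markers (of 15 listed, with Lrat and Tyr detected on no array) lay between -0.06 and 0.47 in the control and between -0.10 and 0.71 in the CNGB3 group. For the CNGA3 group it was -1.42, -0.99, -0.95 and -0.80 in replicates 1, 2, 3 and 5 but 0.58 in replicate 4. The median difference of the 12 was -0.92 in the CNGA3 group, where 2 were called lower (Rdh5 and Slc45a2) and 10 were lower at an unadjusted p, and 3.43% of all probes were called lower. In the CNGB3 group 0 were called lower, and between the CNGA3 and CNGB3 groups 4 were called lower in the CNGA3 group and 8 at an unadjusted p. The same mean over 18 measured lens, cornea and iris genes, of which limma called 0 in any comparison (10 and 16 higher at an unadjusted p in the CNGA3 and CNGB3 groups), was -6.03 and -3.77 in control replicates 1 and 3 and at least -0.28 on the other arrays. Among other cell types, 1 of 4 horizontal cell and 2 of 13 Mueller glia markers were called higher in the CNGA3 group, and 0 and 1 in the CNGB3 group, where 4.61% and 1.44% of all probes were called higher. Of 12 cone genes 0 were higher and 2 lower in the CNGA3 group and 0 and 3 in the CNGB3 group, and of 8 rod genes 1 was higher and 2 lower, and 0 and 2, where 3.43% and 1.25% of all probes were called lower. The 3 lower cone genes in the CNGB3 group include Cngb3, the gene targeted there. The others, Arr3 and Guca1a, are the 2 that were lower in the CNGA3 group. CNGA3 replicate 4 had the lowest mean correlation with its group of that group's arrays, 0.9496, and control replicate 3 the lowest of the control, 0.9425.

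Most bipolar markers did not differ from the control beyond the spread between mice in either channel-deficient group. In the CNGA3 group 1 of the 13 measured probes was called (limma, adjusted p under 0.05 over all 13077 measured probes), against 8.04% of all probes, and it was a probe of Scgn that was higher. It was also the 1 probe that was higher at an unadjusted p under 0.05, where 13.2% of all probes were. Of the 13, limma called 0 in the CNGB3 group, with 2.68% of all probes called and 4 of the 13 at an unadjusted p under 0.05, all lower, where 10.2% of all probes were lower at that limit. Between the CNGA3 and CNGB3 groups limma again called 0 of 13, with 2 at an unadjusted p, both higher in the CNGA3 group, where 0.405% of all probes were called and 8.13% were higher unadjusted. With 13 probes, the counts of calls lie near these shares. The median difference over the 13 probes was -0.03 on the log2 scale in the CNGA3 and -0.11 in the CNGB3 group, against -0.01 and 0.00 over all probes. By the brightest probe of each of the 9 genes it was -0.13 and -0.20. For the 6 ON and rod markers this was -0.01 and -0.15, and for the 3 OFF and cone markers -0.285 and -0.387. Of the 13 probes, 7 were lower in the CNGA3 and 9 in the CNGB3 group by sign alone. The median absolute difference of the 13 probes was 0.20 and 0.16, against 0.23 and 0.20 over all probes. Between the CNGA3 and CNGB3 groups the median difference over the 13 probes was 0.25, against -0.01 over all probes. There 10 of the 13 were higher in the CNGA3 group by sign alone, and the median absolute difference was 0.25, against 0.17 over all probes. In whole retina, fewer bipolar cells and less RNA per cell cannot be told apart.

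**Figure D1:**
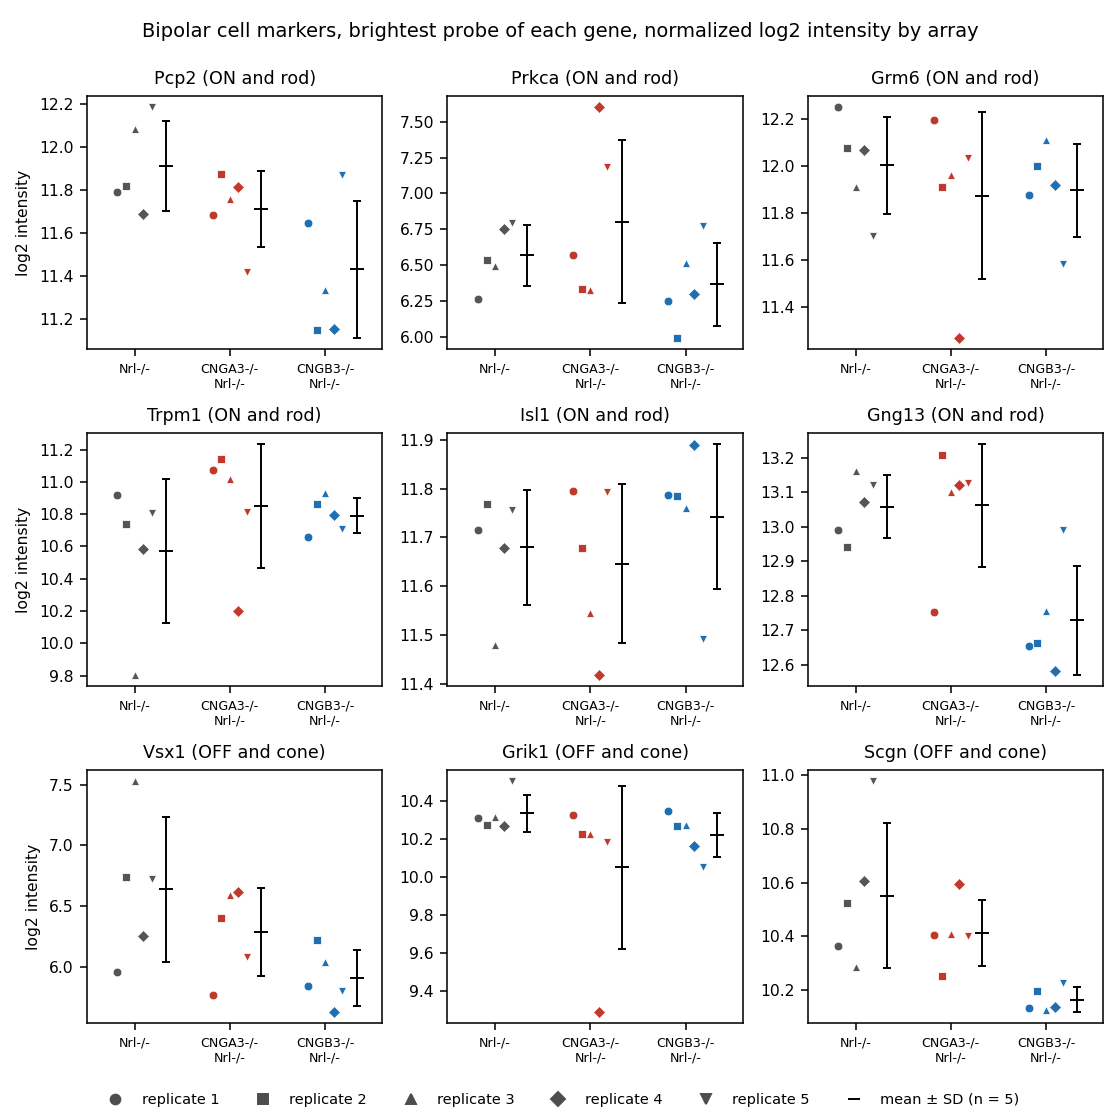
Normalized log2 intensity (y axis) of the brightest probe of each of the 9 markers in the 3 groups (x axis), 1 symbol per array with the symbol shape giving the replicate, and mean ± SD over 5 arrays beside the points. Each panel has its own y range. The control and CNGA3 points overlap in all 9 panels, while the CNGB3 points of Scgn lie below all control points, and CNGA3 replicate 4 is the lowest point for Grm6 and Grik1.

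The precision of these nulls can be read from the 95% intervals of the differences. For the CNGA3 group all 13 intervals lay within 1 log2 unit of no difference, that is, within a 2-fold change either way. For the CNGB3 group 12 of 13 did, and the exception was the brighter Vsx1 probe, whose interval ran from -1.25 to -0.22. The 13 include the dimmer Vsx1 probe, detected on 1 control and 1 CNGB3 array, and its intervals are not read as a bound. The median standard error of the 13 probes was 0.17 log2 units, near the 0.18 of all probes.

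**Figure D2:**
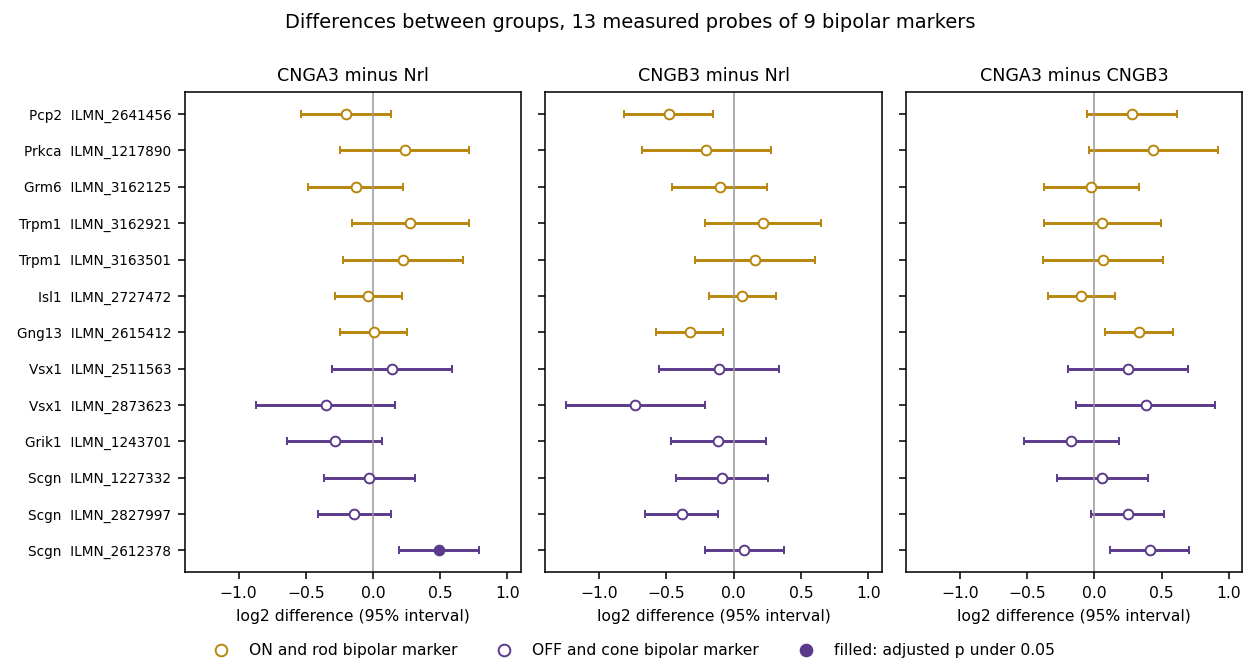
Log2 difference (x axis) with its 95% interval for the 13 measured probes (y axis) in each of the 3 comparisons, from the linear model over all 15 arrays. Filled points passed an adjusted p of 0.05. The filled point is the Scgn probe at 0.49 in the CNGA3 group, and every other point is open.

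Among the genes of the ON cascade, no difference beyond the spread between mice was found for the receptor gene Grm6. The control replicates 1 to 5 read 12.25, 12.08, 11.91, 12.07 and 11.70 on the log2 scale, the CNGA3 group 12.20, 11.91, 11.96, 11.27 and 12.04, and the CNGB3 group 11.88, 12, 12.11, 11.92 and 11.58. The groups overlapped, and CNGA3 replicate 4 was the lowest of the 15 arrays. The difference was -0.13 in the CNGA3 group (95% interval -0.48 to 0.23, limma adjusted p = 0.661) and -0.10 in the CNGB3 group (-0.46 to 0.25, limma adjusted p = 0.768).

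Trpm1, the transduction channel of ON bipolar cells, was measured by 2 probes. On the brighter probe the control replicates 1 to 5 read 10.92, 10.74, 9.80, 10.59 and 10.81, the CNGA3 group 11.08, 11.14, 11.02, 10.20 and 10.81, and the CNGB3 group 10.66, 10.86, 10.93, 10.80 and 10.71. Control replicate 3 was the lowest array and CNGA3 replicate 4 the next. The difference was 0.28 (SE 0.205, limma adjusted p = 0.41) in the CNGA3 and 0.22 (SE 0.205, limma adjusted p = 0.575) in the CNGB3 group. The other probe gave 0.22 and 0.16, with limma adjusted p = 0.531 and 0.71, and read lowest on the same arrays, 8.56 in control replicate 3 and 8.69 in CNGA3 replicate 4. Deviations of the 2 probes from their group means had a Pearson r of 0.866 and a Spearman rho of 0.732 over 15 arrays (permutation within groups, p = 0.00156 and p = 0.00294, adjusted p = 0.0671 and 0.126 over 43 relations), and r was 0.612 without the 2 farthest arrays.

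Trpm1 is also expressed by pigmented cells, so its levels stand beside the pigment epithelium score. The 4 CNGA3 arrays with the lowest scores had Trpm1 levels of 10.81 to 11.14 on the brighter probe, and the CNGA3 array with the highest score had 10.20. Deviations of Trpm1 and of the score had r = -0.572 and rho = -0.429 (permutation within groups, p = 0.0701 and p = 0.107, adjusted p = 0.157 and 0.286), and r = -0.196 without the 2 farthest arrays, so the relation did not pass the test and rests on those arrays. With the score as a covariate the Trpm1 difference in the CNGA3 group turned to -0.10 on the brighter probe (limma adjusted p = 0.801) and to -0.17 on the other (limma adjusted p = 0.657). The scores of those 4 CNGA3 arrays lay below the scores of all other arrays. Fits with the score, here and below, can therefore hardly separate it from the CNGA3 group.

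**Figure D3:**
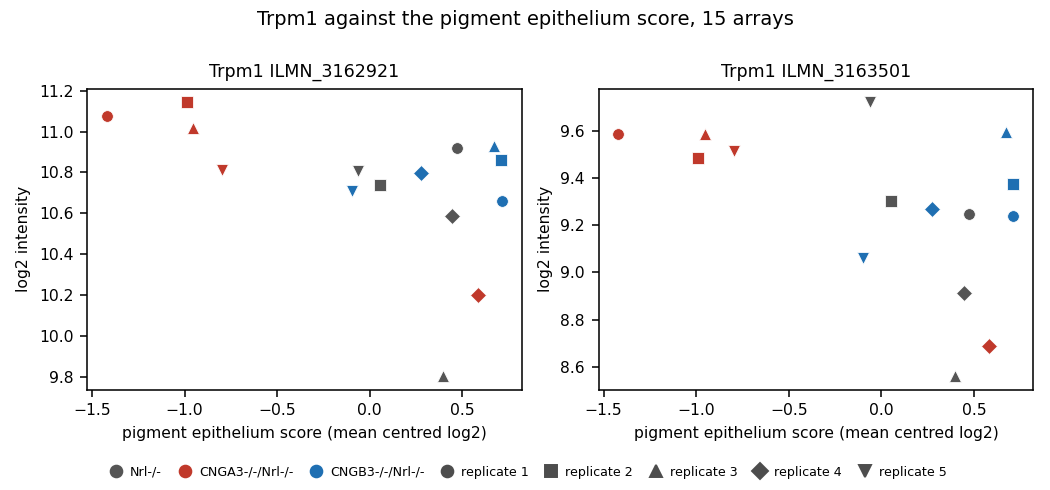
Normalized log2 intensity of the 2 Trpm1 probes (y axis) against the mean centred log2 level of 12 pigment epithelium markers (x axis) on 15 arrays, with colour for the group and shape for the replicate. The lowest Trpm1 points are control replicate 3 and CNGA3 replicate 4, both at scores above 0, and the 4 CNGA3 arrays at the lowest scores lie at 10.81 or above on the brighter probe.

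Gng13 encodes a G protein gamma subunit found in ON bipolar cells, where it forms part of the Go heterotrimer. The control replicates read 12.99, 12.94, 13.16, 13.07 and 13.12 and the CNGA3 group 12.75, 13.21, 13.10, 13.12 and 13.13. The CNGB3 group read 12.66, 12.66, 12.76, 12.58 and 12.99, so 4 of its 5 arrays lay below every control. The difference was -0.33 in the CNGB3 group (95% interval -0.58 to -0.08, limma unadjusted p = 0.0137, adjusted p = 0.136) and 0.00 in the CNGA3 group (-0.25 to 0.26, limma adjusted p = 0.984). The difference between the CNGA3 and the CNGB3 group was 0.33 (limma adjusted p = 0.221) and did not pass either.

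Pcp2, a modulator of Go signalling that marks rod bipolar cells and some ON cone bipolar cells, had a similar arrangement. The control replicates read 11.79, 11.82, 12.08, 11.69 and 12.19, the CNGA3 group 11.68, 11.88, 11.76, 11.81 and 11.42, and the CNGB3 group 11.65, 11.14, 11.33, 11.15 and 11.87. Of the CNGB3 arrays 4 of 5 were below all controls, and replicate 5 lay inside the control range, as it did for Gng13. The difference was -0.48 (95% interval -0.82 to -0.15, limma unadjusted p = 0.00709, adjusted p = 0.106) in the CNGB3 group and -0.20 (limma adjusted p = 0.437) in the CNGA3 group.

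Prkca, whose product protein kinase C alpha is the usual immunolabel of rod bipolar cells, read 6.26 to 6.79 in the control with a median of 6.54. The CNGB3 group overlapped it at 5.99 to 6.77. In the CNGA3 group replicates 1 to 5 read 6.57, 6.33, 6.33, 7.60 and 7.18, so replicates 4 and 5 lay above all controls and the other arrays within them. The differences were 0.24 (SE 0.226, limma adjusted p = 0.537) and -0.20 (SE 0.226, limma adjusted p = 0.647). The sign of the CNGA3 difference turned to -0.02 when arrays were weighted by their quality (limma adjusted p = 0.959).

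Isl1, a homeobox transcription factor of ON bipolar cells that cholinergic amacrine cells and ganglion cells express too, was measured with the smallest standard error of the 13 probes, 0.118. Its mean was 11.68 ± 0.117 (SD, n = 5) in the control, 11.65 ± 0.163 in the CNGA3 and 11.74 ± 0.148 in the CNGB3 group. The 95% intervals were -0.28 to 0.22 and -0.19 to 0.31, with limma adjusted p = 0.883 and 0.809. Of 13 measured amacrine markers, 1 was higher and 1 lower in the CNGA3 group, and 0 higher and 1 lower in the CNGB3 group. Of 11 ganglion cell markers, 0 were higher and 2 lower in the CNGA3 group, and 0 higher and 1 lower in the CNGB3 group. Over all probes 4.61% were called higher and 3.43% lower in the CNGA3 group, and 1.44% and 1.25% in the CNGB3 group. The part of those cells in the Isl1 signal was not tested.

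The OFF and cone bipolar markers included the probe that was called. Scgn encodes secretagogin, a calcium-binding protein found in a subset of cone bipolar cells, ON types among them, and has 3 measured probes annotated to the same transcript. On probe ILMN_2612378 the control replicates 1 to 5 read 9.59, 9.39, 8.95, 9.37 and 9.65, the CNGA3 group 9.74, 9.82, 9.71, 10.20 and 9.94, and the CNGB3 group 9.44, 9.45, 9.57, 9.43 and 9.46. All 5 CNGA3 arrays were above all controls, a separation in this direction that 3.27% of all probes showed. The level rose 1.4-fold in the CNGA3 group (log2 difference 0.49, SE 0.139, limma adjusted p = 0.0403).

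The other Scgn probes did not show this rise. On the brightest, ILMN_2827997, the control read 10.36, 10.52, 10.29, 10.61 and 10.98, the CNGA3 group 10.40, 10.25, 10.41, 10.60 and 10.40, and the CNGB3 group 10.13, 10.20, 10.12, 10.14 and 10.23. Here the CNGB3 arrays lay below every control, with a difference of -0.39 (95% interval -0.66 to -0.12) that did not pass (limma unadjusted p = 0.00802, adjusted p = 0.113), and 3.82% of all probes were separated in this direction. The CNGA3 difference was -0.14 (limma adjusted p = 0.522) on this probe and -0.03 (limma adjusted p = 0.93) on ILMN_1227332, where the groups overlapped. Between the CNGA3 and CNGB3 groups the values of ILMN_2827997 and ILMN_2612378 did not overlap, at 0.25 and 0.41 (limma adjusted p = 0.388 and 0.192), where 2.53% of all probes were separated in that direction.

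**Figure D4:**
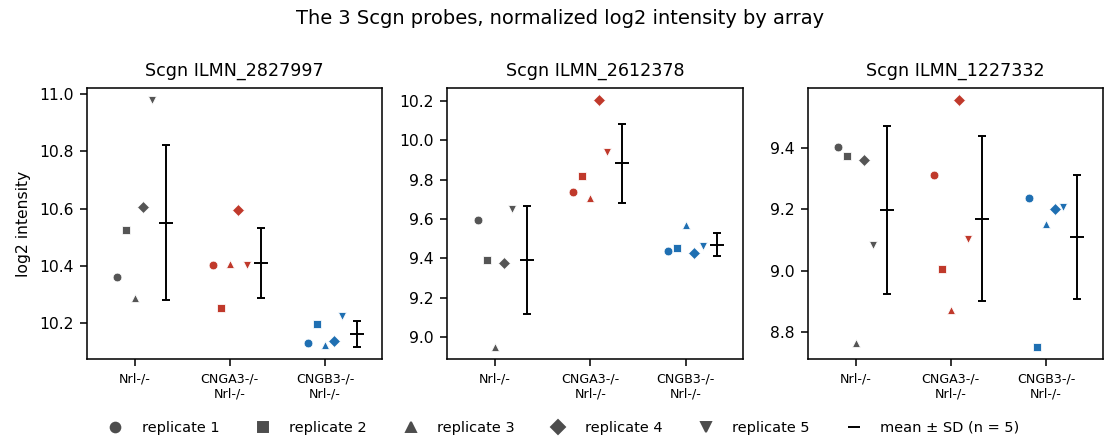
Normalized log2 intensity (y axis) of the 3 Scgn probes in the 3 groups (x axis), 1 symbol per array, with mean ± SD over 5 arrays. On ILMN_2612378 the 5 CNGA3 arrays, from 9.71 to 10.20, lie above all controls, whereas on ILMN_2827997 and ILMN_1227332 they lie among them.

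The call on ILMN_2612378 was not stable. It ended in 6 of 10 fits that left out 1 array, without CNGA3 replicates 2, 4 or 5 or control replicates 2, 3 or 4, with limma adjusted p of up to 0.0892 (without CNGA3 replicate 5). It also ended without control replicates 1 and 3 together (0.41, limma adjusted p = 0.0667) and with only the 2 groups compared (limma adjusted p = 0.126). On this probe the SD was 0.275 in the control, 0.201 in the CNGA3 and 0.0579 in the CNGB3 group, and the main fit pools all 3. Which part of the transcript each Scgn probe covers was not analysed here.

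Vsx1, a homeobox transcription factor of OFF cone bipolar cells and one ON type, had 2 dim probes. On the brighter one, ILMN_2873623, the control read 5.96, 6.74, 7.53, 6.25 and 6.73, the CNGA3 group 5.76, 6.40, 6.59, 6.62 and 6.08, and the CNGB3 group 5.84, 6.22, 6.04, 5.63 and 5.80. The control was the most spread of the groups (SD 0.598), with replicate 3 highest. All 5 of 5 CNGB3 arrays were below the control mean and 3 below every control, with a difference of -0.73 (SE 0.245, limma unadjusted p = 0.00819, adjusted p = 0.113). Without control replicate 1 it was -0.90 and passed (limma adjusted p = 0.0333), the 1 of 10 fits leaving out 1 array that did. Without control replicate 3 the difference was -0.51, and the limma adjusted p reached 0.23 without CNGB3 replicate 4. The dimmer probe was detected on 1 control, 5 CNGA3 and 1 CNGB3 arrays, so it is among the 13 measured probes only through the CNGA3 group, where its mean was highest. Its levels were 5.34 ± 0.488, 5.47 ± 0.288 and 5.22 ± 0.251 in the control, CNGA3 and CNGB3 groups (SD, n = 5), and no difference is read from them.

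Grik1, the kainate receptor subunit of OFF bipolar cells, was measured by 1 of its 3 probes, and the other 2, annotated to the same transcript, were detected on 0 of 15 arrays. The control read 10.31, 10.28, 10.32, 10.27 and 10.51, the CNGB3 group 10.35, 10.27, 10.28, 10.17 and 10.05, and the CNGA3 group 10.33, 10.23, 10.23, 9.29 and 10.18. Apart from CNGA3 replicate 4, at 9.29, all arrays lay between 10.05 and 10.51. The differences were -0.29 (SE 0.167, limma adjusted p = 0.292) and -0.11 (SE 0.167, limma adjusted p = 0.745). Without CNGA3 replicate 4 the CNGA3 difference was -0.09 (limma adjusted p = 0.579). With the pigment epithelium score in the model, which is highest in that array within its group, it was -0.66 and passed (limma adjusted p = 0.0199). That fit can hardly separate the score from the CNGA3 group.

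Whether the members vary together from mouse to mouse could not be settled. On deviations from the group means 43 relations were computed (36 pairs of markers, 5 pairs of probes of 1 gene and 2 with the pigment epithelium score). Of these, 0 had an adjusted p under 0.05. The 2 probes of Trpm1 did not pass either (r = 0.866, permutation adjusted p = 0.0671), so these tests cannot show that members vary apart. Over the 36 pairs of markers r ran from -0.688 (Prkca and Grik1) to 0.716 (Grm6 and Grik1). Grm6 and Trpm1 had r = 0.595 and rho = 0.546 (permutation, p = 0.0503 and p = 0.0403, adjusted p = 0.154 and 0.286) and r = 0.33 without the 2 farthest arrays. Grm6 and Pcp2, both of ON cells, pointed in opposite directions, with r = -0.593 and rho = -0.654 (permutation, p = 0.0164 and p = 0.0147, adjusted p = 0.123 and 0.286) and r = -0.404 without the 2 farthest. As a description of pattern, the other gene whose deviations from the group means had the highest r over the 15 arrays was Amdhd2 for Pcp2 (0.882), Arxes1 for Prkca (0.879), Efr3a for Grm6 (0.919), Eif3c for Trpm1 (0.951) and Parp2 for Isl1 (0.878). It was Mgat1 for Gng13 (0.882), Tubb2b for Vsx1 (0.931), Senp2 for Grik1 (0.953) and Strap for Scgn (0.917). Each is the highest of all measured genes by the brightest probe, and the values compared come from the same arrays.

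Other genes of the ON cascade were taken from a list of 13, of which 8 are on the array and 7 were measured, with Nyx detected on no array. In the CNGA3 group 2 of 7 rose and 0 fell, with a median of 0.30. Among the same 7, 1 rose and 0 fell in the CNGB3 group, with a median of 0.22. Over all probes 4.61% and 1.44% were called as higher in these comparisons, and 3.43% and 1.25% as lower. The genes called were Gnao1 and Lrfn2, and the CNGA3 and CNGB3 comparisons share the same 5 controls.

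Gnao1, the alpha subunit of Go that couples mGluR6 to Trpm1 and is also widespread in other neurons, was higher in the CNGA3 group. The control replicates read 10.46, 10.34, 10.64, 10.30 and 10.75, the CNGA3 group 10.95, 11.63, 11.41, 11.21 and 11.29, and the CNGB3 group 10.60, 10.55, 10.90, 10.72 and 10.80. All CNGA3 arrays lay above all controls and above all CNGB3 arrays. The rise was 1.74-fold (log2 difference 0.80, SE 0.14, limma adjusted p = 0.00397), and its other probe gave 0.46 (limma adjusted p = 0.0784). The CNGB3 difference was 0.22 (limma adjusted p = 0.4), and the difference between the CNGA3 and CNGB3 groups, 0.58, did not pass (limma adjusted p = 0.0811). That difference of Gnao1 passed on the authors' values (0.55, limma adjusted p = 0.0483), with median centring (0.65, adjusted p = 0.0323) and with array weights (0.66, adjusted p = 0.00536). It did not pass with either other detection filter (limma adjusted p = 0.0811 and 0.0557) or the replicate block (0.0706). Nor did it with the pigment epithelium score (limma adjusted p = 0.111) or only the 2 groups compared (0.0706). Of 10 fits that left out 1 array, 1 passed, without CNGA3 replicate 1 (0.67, limma adjusted p = 0.0349). In the others the limma adjusted p reached 0.215, without CNGA3 replicate 2.

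Lrfn2, a leucine-rich-repeat adhesion protein of synapses, was higher in both. Control arrays read 9.41 to 10.33, CNGA3 arrays 10.13 to 10.91 and CNGB3 arrays 10.74 to 11.02, so that all CNGB3 arrays cleared every control, while CNGA3 replicate 4 did not. The rise was 1.63-fold (0.70, SE 0.167, limma adjusted p = 0.0182) and 2.03-fold (1.02, SE 0.167, limma adjusted p = 0.00457). With the pigment epithelium score in the model the CNGA3 difference of Lrfn2 was 0.41 and did not pass (limma adjusted p = 0.163), nor did it with only the 2 groups compared (adjusted p = 0.0704).

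Of 29 other bipolar markers, 23 are on the array and 22 were measured. Cabp5 and Lhx4, 2 of the 22, rose in the CNGA3 group and 0 fell (median 0.13). Of these genes 0 rose and Fezf2 fell in the CNGB3 group (median -0.14). Counted in either direction, the calls moved with the setting. For the CNGA3 group there were 5 with median centring, 6 with array weights, 1 with only the 2 groups compared, 0 with the pigment epithelium score in the model and 1 to 4 without single arrays. The 6 with array weights include Fezf2, which was lower (-0.42, limma adjusted p = 0.0403). Without control replicates 1 and 3 the genes called there were Lhx4, Irx5 and Kcng4, so the count was 3 but Cabp5 was lost. For the CNGB3 group 2 were called with median centring and 2 with the score, Lhx4 and Fezf2 both times, 5 with array weights, 0 on the authors' values, 0 with no detection filter and 0 to 3 without single arrays. Without control replicates 1 and 3 they were Lhx4, Irx5 and Fezf2, of which Lhx4 (1.12) was higher. Irx5, not called here, was 0.70 and 0.71 higher in the CNGA3 and CNGB3 groups (limma adjusted p = 0.074 and 0.113).

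Cabp5, a calcium-binding protein of rod bipolar cells and some cone bipolar types, separated the channel-deficient groups from each other. The control replicates read 9.42, 10.03, 9.84, 9.86 and 10.36, the CNGA3 group 10.26, 11.05, 10.85, 10.61 and 10.59, and the CNGB3 group 9.52, 9.07, 9.22, 9.40 and 9.86. Every CNGA3 array exceeded every CNGB3 array, while each of those groups overlapped the control. The CNGA3 level was 2.39-fold that of the CNGB3 group (log2 difference 1.26, SE 0.19, limma adjusted p = 0.00472), where 0.184% of all probes were called as higher, and the call held in all 10 fits that left out 1 array (adjusted p of up to 0.0232). Against the control it was 0.77 higher in the CNGA3 group (SE 0.19, limma adjusted p = 0.0217). This call against the control ended without CNGA3 replicate 2 (limma adjusted p = 0.0595), without control replicates 1 and 3 (0.59, adjusted p = 0.0735), with the pigment epithelium score in the model (0.60, adjusted p = 0.117) and with only the 2 groups compared (adjusted p = 0.0545). In the CNGB3 group the difference was -0.49 (SE 0.19, limma adjusted p = 0.161).

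Lhx4, a LIM homeobox gene expressed in bipolar cells and also in cones, rose 2.12-fold in the CNGA3 group, from 8.16 ± 0.415 to 9.24 ± 0.494 (SD, n = 5; limma adjusted p = 0.00979), and did not pass with the pigment epithelium score in the model (0.76, limma adjusted p = 0.0818). Its CNGB3 mean was 9.01 ± 0.185, above all controls, with a difference of 0.85 (limma adjusted p = 0.0541) that did not pass here but did under 7 of 9 other settings, apart from fits leaving out single arrays, among them median centring (limma adjusted p = 0.0418). Of the 10 fits that left out 1 array, 2 passed, those without control replicate 1 or 3. In the others the limma adjusted p of Lhx4 reached 0.132, without CNGB3 replicate 4. Fezf2, a zinc finger transcription factor, fell by 0.61 in the CNGB3 group, from 6.82 ± 0.323 to 6.21 ± 0.0903 (SD, n = 5; limma adjusted p = 0.0399). That call ended in 8 of 10 fits that left out 1 array, with adjusted p of up to 0.102 without CNGB3 replicate 4. On the authors' values the Fezf2 difference was -0.27 and did not pass (limma adjusted p = 0.0597), nor did it with no detection filter (0.0501), the replicate block (0.0531) or only the 2 groups compared (0.0662). In the CNGA3 group Fezf2 was lower too, by sign (-0.46, 95% interval -0.78 to -0.14, limma adjusted p = 0.0683). That difference passed in 2 of 10 fits that left out 1 array. Between the CNGA3 and CNGB3 groups Fezf2 differed by 0.15 (limma adjusted p = 0.685).

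**Figure D5:**
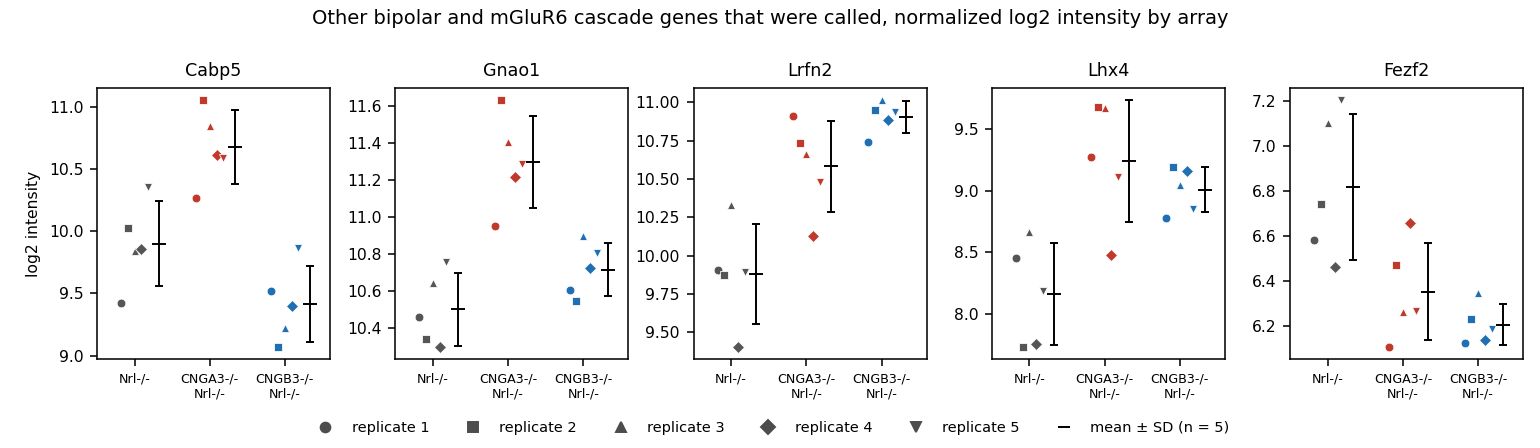
Normalized log2 intensity (y axis) of the 5 called genes from the lists of other cascade and bipolar genes in the 3 groups (x axis), 1 symbol per array, with mean ± SD over 5 arrays. Each panel has its own y range. For Cabp5 all CNGA3 points lie above all CNGB3 points, and for Gnao1 the CNGA3 points lie above both other groups.

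The scale of the comparison affects small differences. Centring arrays on their medians in place of quantiles moved the median of all probes in the CNGA3 comparison from -0.01 to 0.11, and higher probes went from 57.4 to 83.4% of those called. Under it the differences of Isl1 (-0.03 to 0.04) and of the dimmest Scgn probe (-0.03 to 0.10) changed sign in the CNGA3 group, and that of Grm6 between the CNGA3 and CNGB3 groups went from -0.02 to 0.04. In the comparison of those 2 groups probes higher in the CNGA3 group went from 45.3 to 85.1% of those called.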

How the data were processed

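Per the labels' protocols, amplified and biotin-labelled retinal RNA was hybridised to Illumina arrays. The submitters' processing notes name GenomeStudio, and its settings and genome build are not stated here. As deposited, each probe has a linear intensity, not normalized, on every array and, per the file headers, a detection p-value. The authors' processed table holds log2 values, which equal the log2 of the quantile-normalized intensity to within 5e-09.

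Background correction, quantile normalization and log2 were done by neqc (limma 3.58.1, R 4.3.3, offset 16). The 13077 of 25697 probes detected on 5 or more arrays (detection p under 0.01) entered a linear model of 3 groups (12 residual and 4.73 prior degrees of freedom), tested on simulated data. P-values are limma's moderated, two-sided values, adjusted by Benjamini and Hochberg over all tested probes of a comparison. They set a difference against the spread between mice. Levels of different probes are not compared.

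The platform table gives 1 symbol for 23978 probes and none for 1719. All probes of the 9 markers are reported. From the 2 wider lists up to 4 called genes are named by their brightest probe (without a call, the 2 of lowest p), and for each marker the gene of most similar pattern. Members and lists were chosen with earlier results of these data known. Correlations used deviations from group means and 100000 permutations within groups. The number of arrays limits the precision. The alternatives were the authors' values, median centring, 2 other detection filters, array weights, a replicate block, the pigment epithelium score as a model term, fits on 2 groups and arrays left out, and for the wider lists these were chosen after seeing the data.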

Additional observations from a re-analysis of the deposited data

Results flagged for a closer look

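Among the 13 marker probes and the 5 other called genes, 54 sets of 5 arrays were examined, and 6 held 1 array far from the other 4, where chance gives about 1 in 20. In the CNGA3 group, replicate 4 read 8.69 for the dimmer Trpm1 probe, where the nearest array read 9.48, and 9.29 for Grik1, where the nearest read 10.18. Replicate 1 of the same group read 12.75 for Gng13, with the nearest at 13.10. Control replicate 5 was the highest for Grik1, at 10.51. In the CNGB3 group, Scgn read 8.75 in replicate 2 on ILMN_1227332 and 9.57 in replicate 3 on ILMN_2612378, the lowest and the highest of their sets.

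Cabp5 differed between the CNGA3 and the CNGB3 group, by 1.26 on the log2 scale (limma adjusted p = 0.00472), and 5 of 5 CNGA3 arrays were above every CNGB3 array. Of 12 pigment epithelium markers 4 were called lower in the CNGA3 than in the CNGB3 group, and with their score in the model the Cabp5 difference was 1.05 (limma adjusted p = 0.0302).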

How the results depend on the processing

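The 13 marker probes gave 725 results under the alternatives, of which 710 stayed on their side of the threshold, 9 lost a call and 6 gained one. No called value turned its sign, and 38 uncalled ones did, at sizes of up to 0.41. The 9 losses are all those of the Scgn probe in the CNGA3 comparison. The number of marker probes called there, 1, became 0 with the replicate block, 0 without control replicates 1 and 3, 0 with only the 2 groups compared and 2 with the pigment epithelium covariate, and lay between 0 and 1 when single arrays were left out. In the CNGB3 comparison, 0 became 1 with array weights and 1 without control replicates 1 and 3 (ILMN_2827997 of Scgn both times, limma adjusted p = 0.0233 and 0.0244), with a range of 0 to 1 without single arrays. Between the CNGA3 and CNGB3 groups 0 became 2 with array weights (Gng13, adjusted p = 0.031, and ILMN_2612378, adjusted p = 0.0284), and stayed at 0 to 0 without single arrays.

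Over all probes, the 1051 calls of the CNGA3 comparison became 1880 with array weights, 1882 with the covariate and 323 with only 2 groups, and 551 to 1229 without single arrays. The 351 of the CNGB3 comparison became 1054 with array weights, 849 without control replicates 1 and 3 and 230 with only 2 groups, and 130 to 828 without single arrays. The 53 between the CNGA3 and CNGB3 groups became 201 with median centring, 122 with the replicate block, 1170 with array weights, 1069 with the covariate and 72 with only 2 groups, and 19 to 180 without single arrays. Fits on 2 groups hold fewer arrays and take the spread from those groups alone. The cause of these shifts was not tested.

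Whether the replicate numbers pair the arrays was not tested, as same-numbered pairs were not set against differently numbered ones. Of 15 same-numbered pairs, 4 had deviations correlated over 0.1 (range -0.107 to 0.28). They were replicate 4 in every comparison and replicate 3 of the CNGA3 and control groups (0.249). For replicate 4 the r was 0.214 (CNGA3 and control), 0.28 (CNGB3 and control) and 0.14 (CNGA3 and CNGB3). With the replicate block the counts over all probes were 1107, 387 and 122, and the Scgn call (ILMN_2612378) ended at an unchanged difference of 0.49 (limma adjusted p = 0.0531).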
